A study of Mus musculus with 12 samples.

Results

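Transcripts of 9 Hedgehog genes were examined in whole mouse kidney: the ligands Shh, Ihh and Dhh, the receptor Ptch1, the transducer Smo, the transcription factors Gli1, Gli2 and Gli3, and the ligand-binding inhibitor Hhip. They were chosen by symbol from the 35275 genes of the deposited count table, and each symbol had 1 entry. The rule that picks them uses symbols alone, but the set was proposed with earlier results of these data known. Hedgehog ligands bind Patched at the cell surface and release Smoothened from its repression, after which Gli proteins leave their repressor forms, pass through the primary cilium and switch on target genes, among them Gli1, Ptch1 and Hhip themselves. In the kidney, epithelial cells are known to make the ligands, and interstitial fibroblasts and pericytes are known to be the main cells that express Gli1. Polycystin-1, the product of Pkd1, is also found in the primary cilium.

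RNA-seq was performed on poly-A RNA of kidneys from 12 C57BL/6J mice at 6 months of age, with 4 mice in each of 3 groups. WT mice carried no engineered allele. RC/RC mice were homozygous for the RC allele of Pkd1, a germline missense allele that models autosomal dominant polycystic kidney disease. RC/RC:Casp1KO mice carried the same Pkd1 alleles and, in every cell, a homozygous deletion in Casp1 from 1 edited line, so that the Pkd1 allele was shared by both mutant groups and no Casp1 deletion on a WT background was analysed here. Each group held females and males, but the count columns do not say which mouse was which, and no value is given by sex. Libraries held between 18019819 and 24869454 counted reads, so that 1 read was worth 0.0385 to 0.0554 CPM, the count per 1000000 reads of a library after scaling by TMM factors.

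The labels were first compared with the genes they name. Casp1 was at 1.29, 1.30, 1.41 and 2.06 CPM in the WT mice, at 2.62, 3.37, 3.84 and 4.26 CPM in the RC/RC mice, and at 0.385, 0.664, 0.665 and 1.05 CPM in the RC/RC:Casp1KO mice. All 4 knockout mice were below all 8 others. Casp1 was 2.35 lower on the log2 scale in RC/RC:Casp1KO than in RC/RC kidneys (log2 fold change -2.35, SE 0.32, n = 4 per group, edgeR quasi-likelihood test with Benjamini-Hochberg adjusted p = 0.00514), and it was higher in RC/RC than in WT (log2 fold change 1.21, SE 0.25, adjusted p = 0.0142). Pkd1 counts, which a missense allele need not alter, had a log2 fold change of 0.06 (SE 0.20, adjusted p = 0.878) in RC/RC against WT. Pkd1 was at 52.9 ± 13.4 CPM in WT, 55.3 ± 9.70 CPM in RC/RC and 71.4 ± 12.2 CPM in RC/RC:Casp1KO kidneys (SD, n = 4 each), with overlap between the groups.

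Some kidneys stood apart by markers of tissue that lies against or inside the kidney. The RC/RC mouse RC139 had a summed level of 1328 CPM for 5 fat markers, of which Cfd, the adipocyte protease adipsin, made up 1014 CPM. The next highest was RC143 at 142 CPM, and the other 10 mice were at 52.7 CPM or below. The WT mouse B6_4 had 53.5 CPM for 8 urothelium markers, against 4.12 to 13.3 CPM in the other WT mice, with the uroplakin Upk3b the most abundant at 14.6 CPM. RC139 was next for these markers at 44.9 CPM, against 19.7 to 27.9 CPM in the other RC/RC mice. Both libraries were kept, and for the members tested, values in RC/RC against WT without either or both are given beside the results. Those of single pathway and marker genes are given with both kept. In each group the 4 libraries differed by more than counting noise, by a chi-square of counts over genes. They differed least within pairs. In WT the chi-square per degree of freedom was 17.7 for B6_2 with B6_3 and 16.4 for B6_4 with B6_6, against 89.8 to 127 for the other combinations. Among RC/RC:Casp1KO mice it was 15.7 for Del3_105 with Del3_60 and 31.8 for Del3_42 with Del3_70, against 67.1 to 93.4, while RC/RC libraries ranged from 37.2 for RC140 with RC143 to 128. What such pairs share cannot be read from the column names, and differences between the pairs are part of the spread within each group.

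Levels were compared between genes only per transcript length, as FPKM recomputed from the counts. Smo was the most abundant of the 9 genes (mean 22.1 FPKM over the 12 mice, range 17.5 to 25.4), followed by Ihh (10.4 FPKM, 7.02 to 14.9) and Ptch1 (6.94 FPKM, 4.29 to 9.42). Each of these 3 exceeded the next gene in the order in all 12 mice. The other 6 were all below 1.20 FPKM in every mouse: Gli1 had a mean of 0.589 FPKM, Shh 0.455, Dhh 0.429, Gli3 0.218, Hhip 0.193 and Gli2 0.0711. Neighbours in that lower part of the order were not all separable. Gli1 exceeded Shh in 8 of 12 mice, Shh exceeded Dhh in 7, Dhh exceeded Gli3 in 11, Gli3 exceeded Hhip in 8 and Hhip exceeded Gli2 in 10. Ihh made up between 88.4% and 94.6% of the summed ligand FPKM in each mouse.

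**Figure D1:**
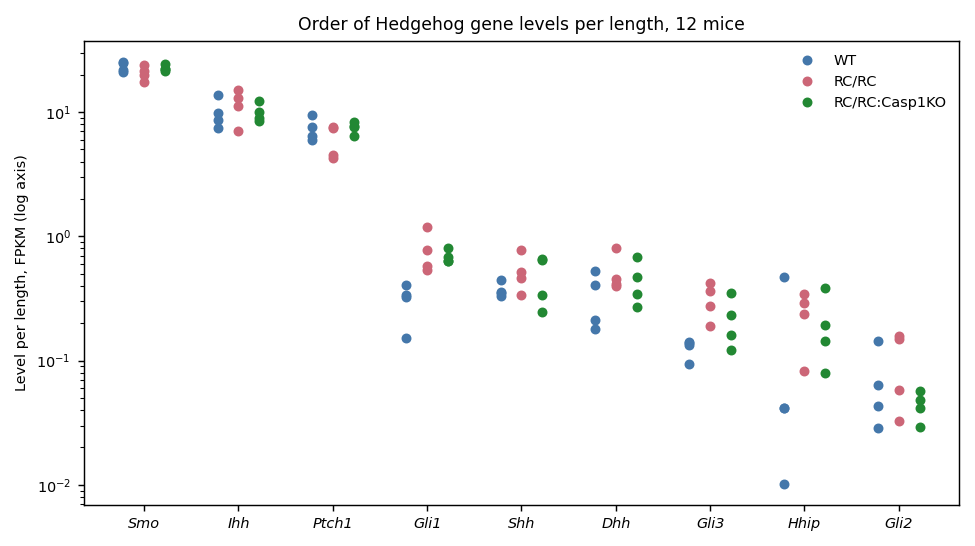
Level per transcript length (FPKM, log axis) of the 9 Hedgehog genes in order of their mean, with 1 point per mouse and 4 mice per group. Smo, Ihh and Ptch1 lie above 4 FPKM in every mouse, and the other 6 genes lie below 1.20 FPKM.

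The ligands did not differ between the groups beyond the spread of the mice. Ihh, the Indian hedgehog ligand, was at 18.5, 21.2, 24.1 and 33.8 CPM in WT, at 17.3, 27.8, 32.1 and 36.8 CPM in RC/RC, and at 20.8, 21.9, 24.6 and 30.5 CPM in RC/RC:Casp1KO kidneys. The groups overlapped, and the lowest mouse of all 12 was an RC/RC mouse. The WT pair B6_2 and B6_3 held the higher values of that group, 24.1 and 33.8 CPM. The same pair held the higher WT values of Shh, Dhh, Ptch1 and Smo and the lower ones of Gli2. For Gli1, Gli3 and Hhip the WT pairs did not separate. In RC/RC:Casp1KO the pair Del3_105 and Del3_60 held the higher values of Ihh, Shh and Ptch1, while the pairs did not separate for the other members. The log2 fold change of Ihh in RC/RC against WT was 0.22, with a 95% interval from -0.33 to 0.78 (edgeR adjusted p = 0.581), and in RC/RC:Casp1KO against RC/RC it was -0.23, with an interval from -0.72 to 0.27 (edgeR adjusted p = 0.517). The first of these was 0.05 without RC139, 0.08 without B6_4 and -0.06 without both, and the second was -0.05 without RC139. Other left-out mice moved them the other way, the first to 0.41 without B6_3 and 0.40 without RC140, and the second to -0.40 without RC140.

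Shh, the Sonic hedgehog ligand, was measured by only 12 to 45 reads per mouse. It was at 0.899, 0.937, 0.957 and 1.20 CPM in WT, then 0.902, 1.24, 1.40 and 2.10 CPM in RC/RC and 0.665, 0.909, 1.73 and 1.75 CPM in RC/RC:Casp1KO kidneys. Dhh, the Desert hedgehog ligand, known from Schwann cells and endothelium, was measured by 9 to 36 reads and was at 0.422, 0.499, 0.957 and 1.24 CPM in WT, then 0.945, 0.969, 1.08 and 1.89 CPM in RC/RC and 0.636, 0.806, 1.12 and 1.61 CPM in RC/RC:Casp1KO kidneys. For both ligands the groups overlapped, and the highest of the 12 mice was RC139. The log2 fold change in RC/RC against WT was 0.49 for Shh (95% interval -0.21 to 1.18, edgeR adjusted p = 0.325). For Dhh it was 0.63 (95% interval -0.29 to 1.56, edgeR adjusted p = 0.335). Without RC139 these were 0.21 and 0.32, without B6_4 0.41 and 0.44, and without RC139 and B6_4 both were 0.16. Shh and 2 long noncoding RNA genes on the opposite strand overlap in the annotation.

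Ptch1, the receptor that holds Smoothened inactive until ligand binds, was at 25.7, 27.6, 32.9 and 40.5 CPM in WT, at 18.5, 19.5, 32.2 and 32.6 CPM in RC/RC, and at 27.7, 32.4, 32.9 and 35.9 CPM in RC/RC:Casp1KO kidneys. The RC140 and RC139 kidneys were the lowest of the 12, and RC105 and RC143 lay within the range of WT. The log2 fold change was -0.31 in RC/RC against WT (95% interval -0.80 to 0.19, edgeR adjusted p = 0.384) and 0.32 in RC/RC:Casp1KO against RC/RC (95% interval -0.13 to 0.78, edgeR adjusted p = 0.296). The value against WT was -0.22 without RC139, -0.39 without B6_4 and -0.28 without both. Smo, the signal transducer, was the most evenly expressed member, at 79.2 to 95.8 CPM in WT, 66.3 to 90.2 CPM in RC/RC and 80.3 to 91.4 CPM in RC/RC:Casp1KO kidneys. Its log2 fold changes were -0.17 (95% interval -0.44 to 0.09, edgeR adjusted p = 0.360) and 0.11 (95% interval -0.13 to 0.36, edgeR adjusted p = 0.503) in the same comparisons. For Smo the value against WT was -0.18 without RC139, -0.23 without B6_4 and -0.21 without both.

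Gli1 and Gli3 were the members that rose in RC/RC kidneys. Both were also measured by few reads per mouse. Gli1 had 12 to 30 in WT and 49 to 83 in RC/RC, and Gli3 had 16 to 24 and 29 to 76. In the mm10 annotation of the table, Gli1 (ENSMUSG00000025407) is a protein-coding gene at chr10:127329889-127341589 on the reverse strand, and Gli3 (ENSMUSG00000021318) lies at chr13:15463235-15730026 on the forward strand. Gli1, a transcriptional activator that is itself a target of the pathway, was at 0.562, 1.20, 1.24 and 1.50 CPM in WT (mean 1.13 ± 0.398 SD, n = 4) and at 1.98, 2.10, 2.86 and 4.37 CPM in RC/RC kidneys (2.83 ± 1.10 SD, n = 4). All 4 RC/RC mice were above all 4 WT mice, with RC139 the highest. Gli1 was higher by a log2 fold change of 1.32 (SE 0.37, 95% interval 0.48 to 2.15, edgeR quasi-likelihood test, Benjamini-Hochberg adjusted p = 0.0475).

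Gli3, which acts mainly as the repressor of the pathway in its processed form, was at 0.766, 1.10, 1.12 and 1.15 CPM in WT (1.03 ± 0.180 SD, n = 4) and at 1.56, 2.23, 2.95 and 3.42 CPM in RC/RC kidneys (2.54 ± 0.813 SD, n = 4). Again the groups did not overlap, and RC139 was the highest. Gli3 was higher by a log2 fold change of 1.29 (SE 0.30, 95% interval 0.60 to 1.97, edgeR adjusted p = 0.0231).

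Thus 2 of the 8 members tested passed in RC/RC against WT, both higher, where 12.9% of the 15243 genes tested passed, 9.76% higher and 3.18% lower. The groups did not overlap for the same 2 members, and over all genes tested they did not overlap for 19.3%. With so few members, 2 of 8 does not set them apart from the table. The median log2 fold change of the 8 members was 0.56, beside -0.02 over all genes tested. This median was not recomputed with mice left out. It depends on RC139, without which Shh and Dhh were at 0.21 and 0.32 in place of 0.49 and 0.63.

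Both calls lay near the threshold and depended on single mice, and that of Gli1 also on the test, since limma-voom gave it a log2 fold change of 1.28 with an adjusted p of 0.0586. With 1 mouse removed at a time, Gli1 kept an adjusted p under 0.05 in 2 of 8 cases, with log2 fold changes between 1.00 and 1.46. The lowest was without RC139 (edgeR adjusted p = 0.137) and the highest without B6_4 (edgeR adjusted p = 0.0552). Gli3 passed in 4 of 8, with values between 1.08 and 1.46, the lowest without RC139 (edgeR adjusted p = 0.0712). Without B6_4 Gli3 was at 1.29 (edgeR adjusted p = 0.0491). Without RC139 and B6_4 together no member passed, with log2 fold changes of 1.18 for Gli1 (edgeR adjusted p = 0.122) and 1.12 for Gli3 (edgeR adjusted p = 0.115). In every one of these fits both genes remained higher in RC/RC. Gli1 and Arhgap9, a gene known from blood cells on the opposite strand, overlap by 55 bases, and since strand use in the counting is not given in the sources used here, reads of that stretch cannot be told apart. Arhgap9 was also higher in RC/RC, by a log2 fold change of 1.27 (SE 0.22, edgeR adjusted p = 0.00660).

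**Figure D2:**
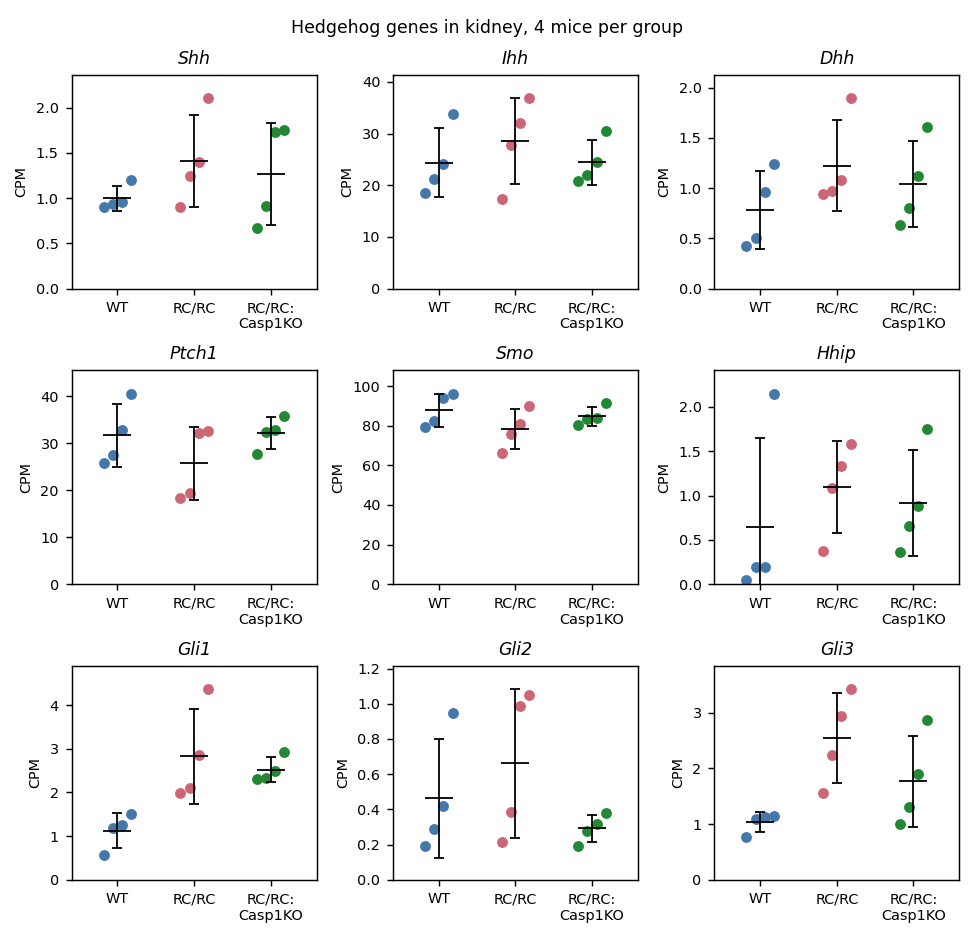
CPM (TMM-scaled, linear axes from 0) of the 9 Hedgehog genes, with 1 point per mouse, 4 mice per group, and the group mean ± SD in black (the lower SD bar of Hhip in WT runs below 0). Gli1 and Gli3 are higher in all 4 RC/RC mice than in all 4 WT mice, while the groups overlap for the other members.

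Gli1 was at 2.32, 2.32, 2.50 and 2.94 CPM in RC/RC:Casp1KO kidneys (2.52 ± 0.290 SD, n = 4). These 4 mice lay within the range of the RC/RC mice, and all 4 were above all 4 WT mice. The log2 fold change against RC/RC was -0.16 (95% interval -0.81 to 0.48, edgeR adjusted p = 0.727), and it changed sign, to 0.15, without RC139. Against WT it was 1.17 (SE 0.30, 95% interval 0.49 to 1.84) with an edgeR adjusted p of 0.0865. The unadjusted p in this comparison was 0.00364, beside 0.00580 in RC/RC against WT, and only 2.03% of the 15346 genes tested passed here.

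Gli3 was at 0.997, 1.31, 1.90 and 2.86 CPM in RC/RC:Casp1KO kidneys (1.77 ± 0.821 SD, n = 4). These mice ran from within the WT range to within the RC/RC range. The log2 fold change was -0.52 against RC/RC (95% interval -1.35 to 0.31, edgeR adjusted p = 0.363, and -0.32 without RC139) and 0.78 against WT (95% interval -0.03 to 1.60, edgeR adjusted p = 0.244). Without Del3_70, the mouse at 2.86 CPM, these were -0.85 (edgeR adjusted p = 0.154) and 0.44 (edgeR adjusted p = 0.532).

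None of the 8 members passed in RC/RC:Casp1KO against RC/RC by edgeR, DESeq2 or limma-voom, and none had an unadjusted edgeR p under 0.05, where 11.6% of the 15428 genes tested passed, 7.23% higher and 4.41% lower. No member separated the groups, beside 20.5% of all genes tested. None passed in RC/RC:Casp1KO against WT by edgeR or limma-voom, where 1.13% of genes passed as higher and 0.893% as lower. There Gli1 alone had an unadjusted edgeR p under 0.05 and alone did not overlap, beside 13.7% of all genes tested, and DESeq2 called it (log2 fold change 1.15, adjusted p = 0.00935). The median log2 fold change of the members was -0.19 against RC/RC, beside -0.03 over all genes, and 0.38 against WT, beside 0.01. The comparisons share mice, so that they are not independent of each other.

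**Figure D3:**
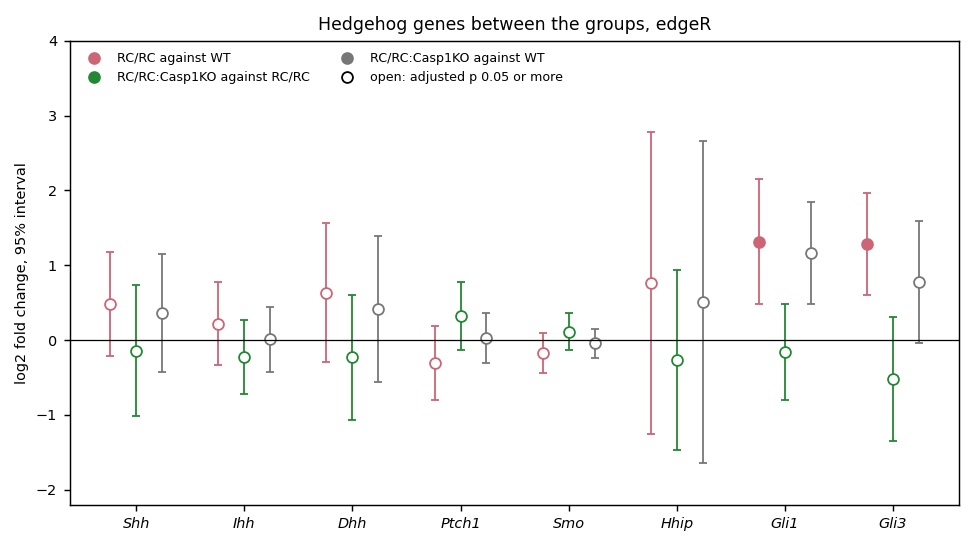
Log2 fold changes of the 8 Hedgehog genes tested in 3 comparisons of 4 mice against 4, with 95% intervals from edgeR. Filled points had an adjusted p under 0.05, which holds only for Gli1 (1.32) and Gli3 (1.29) in RC/RC against WT, and the intervals of Hhip are the widest.

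Gli2, the main activator in many tissues, was measured by 4 to 23 reads per mouse and did not pass the filter on low counts in any comparison. It was at 0.191, 0.287, 0.422 and 0.949 CPM in WT, then 0.216, 0.388, 0.988 and 1.05 CPM in RC/RC and 0.192, 0.277, 0.318 and 0.379 CPM in RC/RC:Casp1KO kidneys. All groups overlapped at these depths. Tested without the filter, its log2 fold change was 0.51 in RC/RC against WT (SE 0.62, edgeR adjusted p = 0.629) and -1.17 in RC/RC:Casp1KO against RC/RC (SE 0.55, edgeR adjusted p = 0.226).

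Hhip, which binds Hedgehog ligands and holds them from Patched, varied most between mice of all members in WT and RC/RC:Casp1KO, though less than Gli2 in RC/RC. It was at 0.0469, 0.191, 0.191 and 2.15 CPM in WT, where the last value is B6_4, at 0.378, 1.09, 1.33 and 1.58 CPM in RC/RC, and at 0.364, 0.654, 0.886 and 1.75 CPM in RC/RC:Casp1KO kidneys. B6_4 was the highest of the 12 mice, and the other 3 WT mice were below all 8 mutant mice. The log2 fold change in RC/RC against WT was 0.76 (SE 0.90, 95% interval -1.26 to 2.79, edgeR adjusted p = 0.602), and without B6_4 it was 2.86 (edgeR adjusted p = 0.0250). Without RC139 the value was 0.52 (edgeR adjusted p = 0.804), and without both mice Hhip was not tested. Its value was 0.51 in RC/RC:Casp1KO against WT (SE 0.95, edgeR adjusted p = 0.782), and 2.61 without B6_4 (edgeR adjusted p = 0.0960). Against RC/RC it was -0.27 (SE 0.53, edgeR adjusted p = 0.764), and -0.02 without RC139, -0.54 without RC140 and -0.80 without Del3_105. B6_4 was also the WT mouse with the most urothelium markers, as given above, and the part of these in its Hhip level was not tested. RC139, the RC/RC mouse with the most urothelium markers, had the highest Hhip of its group, 1.58 CPM.

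Start-site sequence was available for 7 of the 9 members (RefSeq, GRCm38.p6, the assembly of the mm10 build), Gli1 and Shh being the others. Each window ran from 250 bases before to 50 bases after the RefSeq start. The windows were searched on both strands for the Gli binding consensus GACCACCCA and for the core CCACCCA that lies within it. None of the 7 held either, while 0.253% of 32851 windows of all genes held the consensus and 9.30% the core. After this negative result the closest match to the consensus was also counted, which was 6 or 7 of its 9 letters in every member window, as 7 or more were in 58.3% of all windows. The 250 bases before the start are shown for Ptch1 and Hhip, both textbook Gli targets, entirely in lower case since no match was found. The first lies at chr13:63565736-63565985 and the second at chr8:80058009-80058258, both on the reverse strand.
Ptch1: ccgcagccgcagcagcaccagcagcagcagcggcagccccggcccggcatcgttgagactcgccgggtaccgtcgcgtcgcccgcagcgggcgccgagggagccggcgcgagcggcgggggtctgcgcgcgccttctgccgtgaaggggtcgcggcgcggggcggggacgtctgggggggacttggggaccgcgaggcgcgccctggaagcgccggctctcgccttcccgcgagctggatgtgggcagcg
Hhip: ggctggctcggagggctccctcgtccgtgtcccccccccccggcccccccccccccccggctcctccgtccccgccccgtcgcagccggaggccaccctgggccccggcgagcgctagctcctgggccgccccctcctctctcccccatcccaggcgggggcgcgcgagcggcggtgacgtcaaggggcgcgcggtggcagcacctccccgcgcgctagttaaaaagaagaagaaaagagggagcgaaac
These letters were absent from these windows only, and more distant sites were not searched.

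Genes that act with the members were taken from 5 lists of 78 genes, of which 74 were in the table. In RC/RC against WT 9 of the 70 tested were higher and 3 lower, or 12 of 70 beside 12.9% of all genes tested. The 12 became 7 without B6_6 and 6 without RC139 and B6_4, where the calls in the whole table fell from 1971 to 1162 and 1042. RC139 was the highest RC/RC mouse for Scube1, Gpc6, Hhipl1, Grem1, Snai1, Ccnd2 and Arrb2, but not for Ccne1. Comparing RC/RC:Casp1KO with RC/RC, 8 of 70 were higher and 2 lower, beside 11.6%. Against WT, 0 of 67 passed by edgeR, 13 had an unadjusted p under 0.05, and DESeq2 called 5.

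Among genes for the release and carriage of ligand, 2 of 9 tested were higher in RC/RC than in WT. Scube1, a secreted protein of the family that helps ligand leave the cell, ranged from 1.22 to 2.95 CPM among WT mice and from 6.10 to 17.8 CPM among RC/RC mice (log2 fold change 2.51, SE 0.38, edgeR adjusted p = 0.00319). Gpc6, a glypican, was higher by 1.55 (SE 0.23, edgeR adjusted p = 0.00312). Scube1 was then lower in RC/RC:Casp1KO than in RC/RC (log2 fold change -1.18, SE 0.33, edgeR adjusted p = 0.0495), at 3.43 to 7.32 CPM, with an overlap between the groups.

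Of 6 coreceptor genes tested, 2 were higher in RC/RC than in WT. One was Hhipl1, a relative of Hhip, with a log2 fold change of 1.57 (SE 0.41, edgeR adjusted p = 0.0338). It was at 0.954 ± 0.390 CPM in RC/RC and 0.313 ± 0.0946 CPM in WT kidneys (SD, n = 4 each), without overlap between the groups.

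Lrp2, the endocytic receptor megalin of the proximal tubule, which can also take up Hedgehog ligand, was higher in RC/RC:Casp1KO than in RC/RC kidneys. It was at 733, 802, 1307 and 1541 CPM in RC/RC and at 2463, 2712, 3394 and 3972 CPM in RC/RC:Casp1KO kidneys, with no overlap (log2 fold change 1.52, SE 0.28, edgeR adjusted p = 0.0144). In WT it was at 1538 and 1638 CPM in the pair B6_2 and B6_3, and at 2858 and 3102 CPM in the pair B6_4 and B6_6. Among 8 proximal tubule markers, 1 passed as higher in the same comparison, Cubn (log2 fold change 1.34, edgeR adjusted p = 0.0146), without overlap. Slc5a12 (1.10) and Slc5a2 (0.94) did not overlap either but did not pass. The others lay between 0.13 (Slc13a3) and 0.49 (Slc34a1), so that all 8 were positive, with a median of 0.40. The summed levels were 7839 ± 2797 CPM in RC/RC and 10816 ± 1450 CPM in RC/RC:Casp1KO (SD, n = 4 each). The part of these markers in the Lrp2 difference was not tested.

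Of 17 known Gli targets outside the members, 5 were higher in RC/RC than in WT and none lower. Among them were Grem1, a secreted BMP antagonist, Ccne1 and Ccnd2, both cyclins, and Snai1, a mesenchymal transcription factor. Grem1 had the largest log2 fold change of the 5, from 0.281 to 0.478 CPM in WT to 3.61, 4.77, 8.36 and 13.5 CPM in RC/RC (log2 fold change 4.27, SE 0.48, edgeR adjusted p = 0.000806). The log2 fold changes of Ccne1, Snai1 and Ccnd2 were 1.78, 1.66 and 0.96. Over the 17 genes 16 had positive values, with a median of 0.58. Snai1 fell in RC/RC:Casp1KO against RC/RC (log2 fold change -1.39, SE 0.37, edgeR adjusted p = 0.0420), and 1 of 17 had a positive value, with a median of -0.59. Fibroblast markers had medians of 2.39 and -1.55 in these comparisons, and their part in the values of Grem1, Snai1, Scube1 and the other targets was not tested.

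Most regulators between Smo and the Gli proteins, and most genes of ciliary transport, did not pass. In RC/RC against WT 3 of 25 regulators passed: Arrb2, an arrestin, was higher (log2 fold change 0.67), while Evc, a ciliary membrane protein that acts with Smo, and Ulk3, a Gli kinase, were lower (-0.67 and -0.59). Comparing RC/RC:Casp1KO with RC/RC, 4 of 25 were higher, Ulk3 among them. They were Stk36 (0.71), the kinase known as Fused, Ulk3 (0.66), Sufu (0.58), which binds Gli proteins and keeps them inactive, and Iqce (0.53), a partner of Evc. Of 14 genes for ciliary transport, Inpp5e, a ciliary phosphatase, was lower in RC/RC than in WT (-0.47). It was higher in RC/RC:Casp1KO than in RC/RC (0.45), as were the dynein Dync2h1 (0.73) and Ift172 (0.55). The calls in RC/RC:Casp1KO against RC/RC depended on single mice, since 2 pathway genes in place of 10 passed without RC139, RC140, Del3_105 or Del3_60, and 3 without Del3_42.

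**Figure D4:**
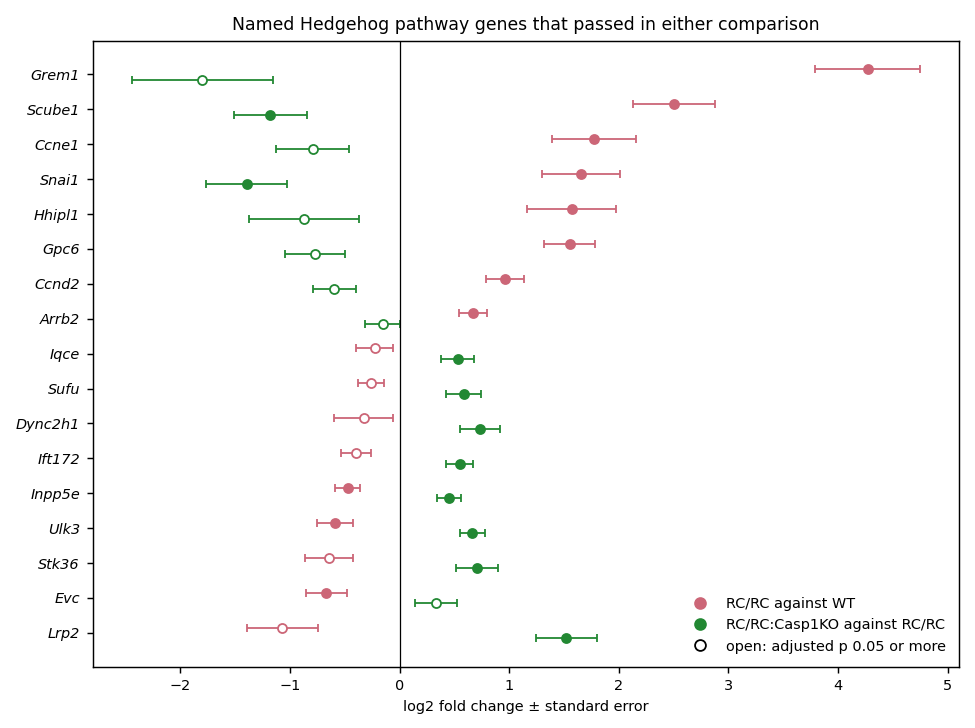
Log2 fold change ± SE of the genes named from the 5 pathway lists, each of which passed in RC/RC against WT or in RC/RC:Casp1KO against RC/RC, with filled points for an adjusted p under 0.05. Grem1 (4.27) and Scube1 (2.51) lie farthest to the right for RC/RC against WT, and Lrp2 (1.52) for RC/RC:Casp1KO against RC/RC.

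Fibroblast markers, and some of the pericyte and smooth muscle markers, were higher in RC/RC than in WT kidneys, as Gli1 was. The summed level of 9 fibroblast markers was 222 ± 32.4 CPM in WT, 1176 ± 447 CPM in RC/RC and 405 ± 176 CPM in RC/RC:Casp1KO kidneys (SD, n = 4 each). All 9 were higher in RC/RC than in WT (median log2 fold change 2.39), 7 were lower in RC/RC:Casp1KO than in RC/RC (median of 9 -1.55), and 1 was higher in RC/RC:Casp1KO than in WT (median 1.02). None was at 0 in any mouse, and the collagens Col3a1 or Col1a2 were the most abundant. For 8 pericyte and smooth muscle markers the sums were 293 ± 22.9, 545 ± 233 and 273 ± 22.2 CPM in the same order of groups, with RC139 at 884 CPM and the other RC/RC mice at 373 to 508 CPM. Of these 8, Pdgfrb, Acta2 and Tagln were higher in RC/RC than in WT, with a median of 0.92 over the list, while Cspg4 (log2 fold change 0.09) and Myh11 (0.17) did not pass, nor did Rgs5, Cnn1 and Des. Comparing RC/RC:Casp1KO with RC/RC, Rgs5, Acta2, Tagln and Des were lower and Cspg4 was higher (0.48), with a median of -0.98. None of the 8 passed against WT by edgeR, and 2 had an unadjusted p under 0.05.

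The values of Gli1 and Gli3 were set beside these sums mouse by mouse. RC139 had the highest fibroblast sum, 1812 CPM, and the highest Gli1 and Gli3. The 4 RC/RC:Casp1KO mice had fibroblast sums of 274 to 653 CPM, below the lowest RC/RC mouse at 772 CPM, while their Gli1 stayed within the RC/RC range. Their Gli3 was 0.997, 1.31, 1.90 and 2.86 CPM at sums of 274, 285, 408 and 653 CPM. Neither Gli gene passed between these groups, and no difference between Gli1 and Gli3 in this respect was tested. The part of fibroblast and pericyte markers in the Gli1 and Gli3 differences was not tested, and in whole kidney more cells of a type and more RNA per cell cannot be told apart.

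**Figure D5:**
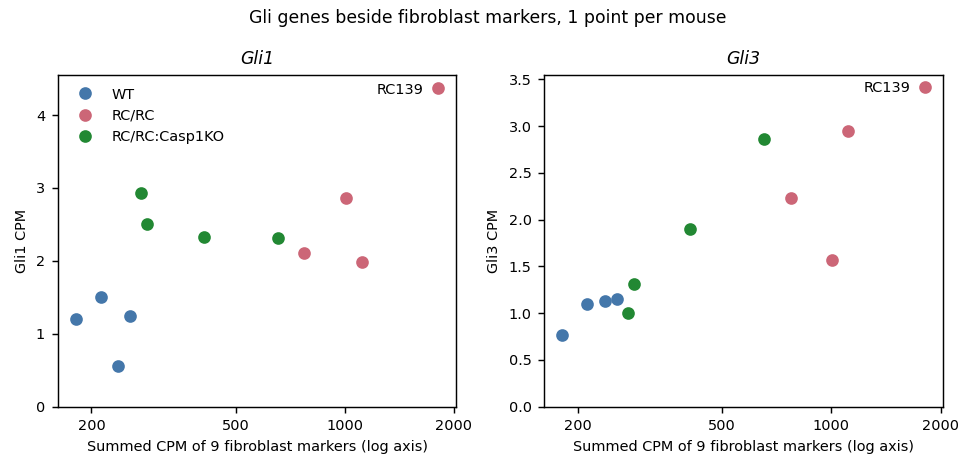
Gli1 (left) and Gli3 (right) in CPM against the summed CPM of 9 fibroblast markers (log axis), with 1 point per mouse. RC139 lies highest on every axis, and the RC/RC:Casp1KO mice have Gli1 levels of 2.32 to 2.94 CPM at fibroblast sums of 274 to 653 CPM.

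Other cell types were checked in the same way. Leukocyte markers were higher in RC/RC than in WT for 6 of 7, with sums of 121 ± 9.65 CPM in WT, 305 ± 46.7 CPM in RC/RC and 228 ± 71.6 CPM in RC/RC:Casp1KO (SD, n = 4 each). Proximal tubule markers were lower in RC/RC for 2 of 8 and markers of the loop and distal tubule for 2 of 5. None of 7 collecting duct, 8 endothelial and 4 Schwann cell markers passed in RC/RC against WT, by edgeR, and 6, 4 and 2 of them had an unadjusted p under 0.05. For podocytes 1 of 5 was lower and for urothelium 1 of 8 higher.

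Across the 12 mice the members varied together only in part. The highest Pearson correlation of log2 CPM among the 36 pairs was that of Ptch1 with Smo (r = 0.78, Spearman rho = 0.69, and r = 0.72 after group means were removed). Gli1 and Gli3 had r = 0.55, and -0.07 after group means were removed. Gli1 with Ptch1 had r = -0.35. These values rest on 12 libraries that share their group structure and, for Gli1 and Gli3, on few reads.

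Of 14878 genes tested in all comparisons, the 5 whose log2 CPM was most like that of Gli1 were Hhex (r = 0.95), Nop56 (0.93), Myl4 (0.92), Efr3b (0.92) and Lama4 (0.90). With group means removed these were between 0.78 and 0.86. Their Spearman rho with Gli1 ran from 0.69 for Lama4 and 0.78 for Hhex to 0.98 for Nop56. The 5 genes were chosen for their likeness to Gli1 over the same mice. None of these correlations is therefore a separate check, and differences of the 5 between the groups are not given as results. Among the 5 most like Ihh were Mylip (0.92), Cish (0.91), Socs2 (0.90) and Vgll4 (0.87). Cish and Socs2 are known targets of cytokine and growth hormone signalling.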

How the data were processed

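Poly-A RNA libraries of 12 kidneys were sequenced, and per the labels reads were handled with CASAVA 1.8 and STAR on mm10. The counting tool and its strand setting are not given in the sources used here. The deposited table holds raw read counts per gene, which the authors made before deposit, beside gene lengths and coordinates. Its FPKM values, fold changes and p-values were not used. Columns name the group but not the sample, and 0 columns were of unknown group. The Hedgehog genes and all lists were chosen with earlier results of these data known. The authors' Hedgehog pathway gene set was drawn from these same mice, and holds Gli1 and Gli3, so that their calls are not independent of it.

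Counts were tested pairwise, 4 mice against 4, with edgeR 4.0.16 (quasi-likelihood, TMM, filterByExpr, R 4.3.3) and Benjamini-Hochberg adjustment over all genes tested, at a threshold of 0.05, after a test on simulated data. SE is the log2 fold change over the root of the F statistic, and intervals are at 95%. CPM used TMM factors over 12 libraries, correlations used log2 CPM with a prior count of 2, and FPKM was recomputed from counts and length. Intervals are for the log2 fold change between the groups, given the spread between these mice, and are not ranges of single mice. Alternatives were DESeq2 1.42.0, limma-voom (limma 3.58.1), RLE or no scaling factors, no filter, 1 fit of all libraries and leaving out each mouse. DESeq2 made more false calls than edgeR on the simulated data. Leaving out RC139 and B6_4 together and the closest match to the motif were added after seeing the data.

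Named were the 9 members, Casp1 and Pkd1, of each pathway list up to 4 genes per comparison with the largest absolute log2 fold change among those that passed, markers by list, and the 5 genes most correlated with Gli1 and with Ihh. Arhgap9 was added for its overlap with Gli1. Some genes that this rule names are not reported here, though the counts include them.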

Additional observations from a re-analysis of the deposited data

Results flagged for a closer look

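In 3 of 27 sets of 4 mice (9 members in 3 groups), 1 mouse lay apart from the other 3 by Dixon's ratio of the gap to the range, taken at its 95% critical value. Chance alone gives about 1 in 20 such sets. For Hhip in WT the ratio was 0.931, with B6_4 at 2.15 CPM and the others at 0.0469 to 0.191 CPM. For Gli3 in WT it was 0.870, with 1 mouse at 0.766 CPM below the others at 1.10 to 1.15 CPM. The coefficient of variation of Gli3 in WT was 17.4%, less than the 21.6% that counting alone gives. For Dhh in RC/RC it was 0.859, with RC139 at 1.89 CPM above the others at 0.945 to 1.08 CPM.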

How the results depend on the processing

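No paired analysis was possible because the count columns carry neither a replicate number nor the sex of the mouse. Neither was inferred from expression, and no fit was blocked by the pairs of similar libraries given above. Of the 343 values of members under alternatives, 313 kept their direction and their side of the threshold, 13 lost a call, 2 gained one and 15 changed sign, and the cause was not tested. In RC/RC against WT limma-voom called 1 member in place of 2, without Gli1, and single left-out mice gave 0 to 2. DESeq2 called 3018 genes in place of 1971 and 19 other pathway genes in place of 12, and 1 fit of all libraries gave 20. Left-out mice gave 1162 to 2440 genes and 7 to 15 pathway genes, the lowest both without B6_6, and 1270 genes without RC139. Without RC139 and B6_4 together there were 0 members, 1042 genes and 6 pathway genes, Hhip was not tested, and Ihh was at -0.06. In RC/RC:Casp1KO against RC/RC DESeq2 called 3182 genes and 18 pathway genes in place of 1797 and 10, scaling by library size 993 and 3. Left-out mice gave 438 to 2789 genes and 2 to 15 pathway genes. The genes numbered 754 without RC139, 438 without RC140, 440 without Del3_105, 810 without Del3_42, 606 without Del3_60 and 2789 without RC105. In RC/RC:Casp1KO against WT DESeq2 called 1 member, 1390 genes and 5 pathway genes in place of 0, 311 and 0. Left-out mice gave 0 to 1 pathway genes and 108 to 547 genes, with 547 without Del3_42, 122 without B6_2, 119 without B6_3, 108 without B6_6, 124 without Del3_105, 147 without Del3_60 and 123 without Del3_70. DESeq2 made more false calls than edgeR on simulated data.

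Changes of sign were all in values that did not pass. In RC/RC:Casp1KO against RC/RC left-out mice moved Shh between -0.34 and 0.14, Dhh between -0.51 and 0.08 and Gli1 between -0.32 and 0.15. In RC/RC:Casp1KO against WT they moved Ihh between -0.12 and 0.20, Ptch1 between -0.05 and 0.17 and Hhip between -0.02, without Del3_105, and 2.61, without B6_4. There Ihh was also at -0.01 by DESeq2 and -0.00 with RLE factors, and Smo at 0.08 by library size, where the median of all genes was 0.14 in place of 0.01. The share of calls that were higher was 75.4%, 62.1% and 55.9% in the 3 comparisons as listed, 86.1%, 82.0% and 79.8% by library size, and 66.2%, 55.2% and 57.6% by DESeq2. Shh, Dhh, Gli2 and Hhip had fewer than 50 reads in every mouse, but the spread between mice was often wider than counting error: the coefficient of variation of Hhip in WT was 156%, where counting alone gives 27.7%, and that of Dhh in WT 49.8% against 24.8%.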
